A study of Mus musculus with 8 samples.

Results

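The block of mouse chromosome 13 from 62 to 68 Mb (GRCm39) is known for its clusters of KRAB zinc-finger genes. Its members here are the peaks of ALKBH5-bound RNA whose summit lies in that interval, 577 of the 72953 peaks in the 4 deposited lists. They were 48 and 40 peaks in the 2 replicates of cells with ALKBH5 del-cIDR, and 260 and 229 peaks in the 2 replicates of wild-type cells with full-length ALKBH5. The block was chosen because the genotypes differed there in the number of peaks. That number, and everything that follows from it between the genotypes, is therefore described and not tested.

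RNA contacts were mapped by eCLIP, in which UV light fixes a protein to RNA in direct contact with it and the protein is then immunoprecipitated, in nuclei of E14TG2a cells, a mouse embryonic stem cell line kept with LIF and the inhibitors PD0325901 and CHIR99021. One group carried Alkbh5 del-cIDR, an endogenous ALKBH5 without its C-terminal intrinsically disordered region, and the other was WT. An immunoprecipitate and an input were made in 2 replicates of each, 8 samples in all, and the peak lists of the 4 immunoprecipitates are analysed here. The lists named for a knock-in were taken as del-cIDR, the only genotype besides WT. The labels do not say whether the del-cIDR cells are 1 clone or whether replicates came from separate cultures. Read numbers are unknown, and peaks carry no strand and no gene name, so the stem cell identity of the samples could not be checked against marker genes.

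ALKBH5 is a nuclear dioxygenase that removes the N6-methyl group from adenosines in RNA. KRAB zinc-finger proteins are DNA-binding repressors: tandem zinc fingers read the target DNA, and the KRAB domain recruits the co-repressor TRIM28, which in embryonic stem cells keeps many transposable elements silent. Their genes multiplied by local duplication and stand in clusters of close paralogs, each usually with a long last exon that encodes all fingers. One such cluster of mouse chromosome 13 holds Rsl1, a repressor of male-specific liver genes, and in the RefSeq gene order of the older build GRCm38.p6 it forms a run of 25 adjoining protein-coding genes with Zfp or Rsl symbols, from Zfp712 to Zfp273. That build was not mixed with the positions given here. Peaks were not assigned to genes, and the block is described by position. The sources used here do not say how reads that fit several paralogs were placed.

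Del-cIDR libraries held far fewer peaks in the block than full-length libraries. The 48 and 40 del-cIDR peaks averaged 44.0 ± 5.66, and the 260 and 229 full-length peaks averaged 244.5 ± 21.9 (SD, n = 2 per genotype), a ratio of del-cIDR to full-length of 0.180. Both del-cIDR libraries lay far below both full-length libraries. The inputs were not analysed here, so more binding and more of the bound RNA cannot be told apart in any of these counts. The del-cIDR lists are of much the same length as the full-length lists, with 17584 and 18841 peaks against 19892 and 16636, so the block took 0.273% and 0.212% of the del-cIDR peaks and 1.31% and 1.38% of the full-length peaks. The peaks covered 19.0 and 16.9 kb in del-cIDR libraries and 157.9 and 90.6 kb in full-length libraries. Full-length replicate 1 covered more than replicate 2 because its peaks were both more numerous and wider. Part of the difference in number lay in how closely full-length peaks crowded. When peaks of a library within 5 kb of each other were joined, 40 and 33 del-cIDR clusters stood against 108 and 97 full-length clusters, a ratio of 0.356.

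**Figure D1:**
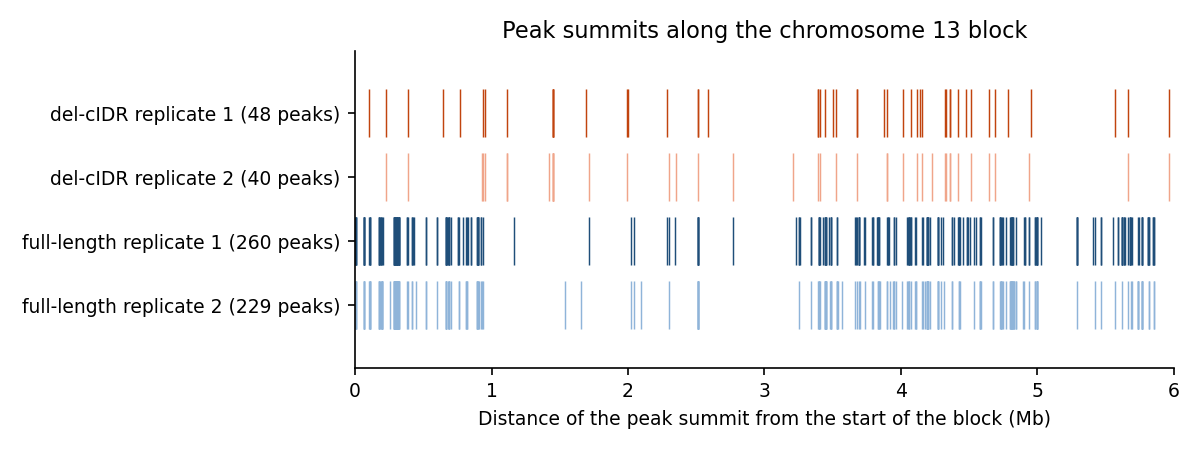
Each line is 1 peak summit, placed by its distance in Mb from the start of the block, with a row for each library. The 48 and 40 del-cIDR summits reach from near the start to near the end of the block, unevenly and with long gaps. Full-length summits form dense bundles in the first 1 Mb and in the last 3 Mb and are sparse between them.

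The block was not uniform. It had a first stretch from 62 to 63 Mb, a middle stretch from 63 to 65 Mb and a last stretch from 65 to 68 Mb, divided after the counts per 500 kb were seen. The first stretch held 7 and 5 del-cIDR peaks and 84 and 84 full-length peaks, a ratio of 0.0714. The middle stretch held 12 and 13 del-cIDR peaks and 13 and 12 full-length peaks, or 6.25 ± 0.354 peaks per Mb in each (SD, n = 2). These equal sums joined windows that went opposite ways, as the counts by 500 kb show. The last stretch held 29 and 22 del-cIDR peaks and 163 and 133 full-length peaks, a ratio of 0.172. Across the 3 stretches the del-cIDR density stayed between 6.0 ± 1.41 and 8.5 ± 1.65 peaks per Mb, whereas the full-length density was 84.0, 6.25 ± 0.354 and 49.3 ± 7.07 peaks per Mb in turn.

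In windows of 500 kb, both del-cIDR libraries lay below both full-length libraries in 10 of the 12 windows. Over the genome the same held in 24.0% of the 3410 windows with at least 4 summits. Nothing is read from this share, since the block was chosen on that contrast. The densest full-length window, from 62 to 62.5 Mb, held 3 and 2 del-cIDR peaks and 51 and 57 full-length peaks. The window from 66.5 to 67 Mb held 5 and 4 del-cIDR peaks and 35 and 37 full-length peaks. That from 66 to 66.5 Mb held 11 and 9 del-cIDR peaks, the most of any window in those libraries, and 38 and 31 full-length peaks. Of these 3 windows, the richest in full-length peaks was the poorest in del-cIDR peaks, and the genotypes overlapped in none. The window from 65.5 to 66 Mb, with as many del-cIDR peaks as that from 66.5 Mb, held 5 and 4 of them and 27 and 24 full-length peaks. In the middle stretch, 2 of the 4 windows were among these 10. From 64 to 64.5 Mb there were 2 and 2 del-cIDR peaks against 5 and 4 full-length peaks, and from 64.5 to 65 Mb 3 and 2 against 6 and 6. The genotypes overlapped from 63.5 to 64 Mb, with 2 and 2 del-cIDR and 1 and 2 full-length peaks. From 67 to 67.5 Mb neither del-cIDR library listed a peak, and full-length libraries listed 10 and 4.

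The window from 63 to 63.5 Mb went the other way, with 5 and 7 del-cIDR peaks and 1 and 0 full-length peaks. It was the only 1 of the 12 windows in which both del-cIDR libraries lay above both full-length libraries, a pattern found in 33.3% of the windows over the genome. Most of these peaks adjoined each other. Between 63446690 and 63450210 both del-cIDR libraries had 4 peaks, merged into regions of 787, 535, 679 and 1315 bp with gaps of under 100 bp. Fold enrichment there ran from 2.73 to 4.43 in replicate 1 and from 3.11 to 3.83 in replicate 2. Neither full-length library listed a peak at this site, which was the only cluster of 3 or more del-cIDR peaks in the block.

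**Figure D2:**
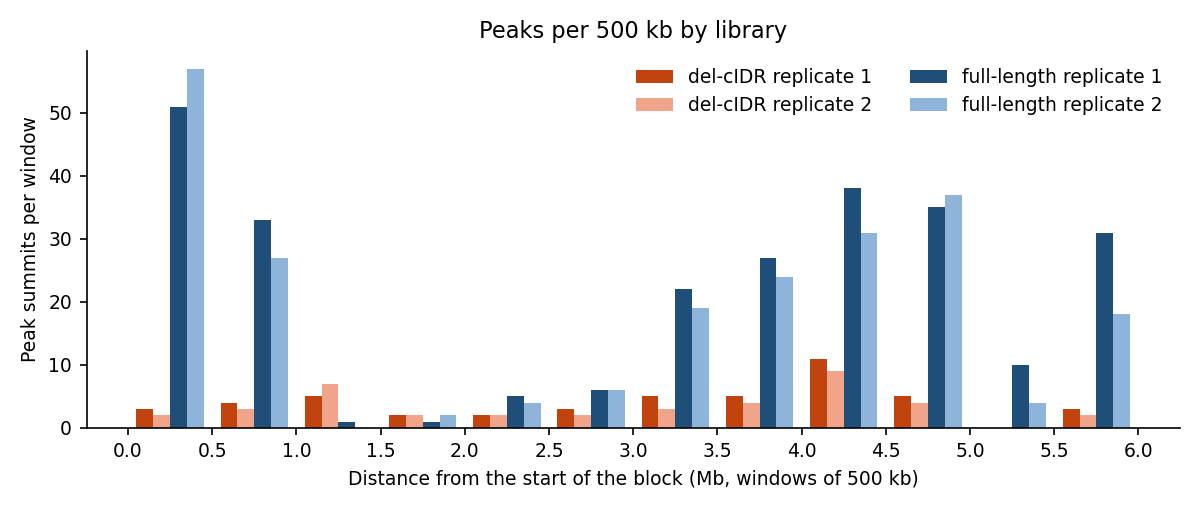
Bars give the number of peak summits in each window of 500 kb, by distance in Mb from the start of the block, for the 4 libraries. No del-cIDR bar exceeds 11, while full-length bars reach 51 and 57 in the first window and 35 and 37 in the window from 4.5 to 5 Mb.

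The borders of the block were set at round positions, and no peak of any library spanned them. In the del-cIDR libraries the nearest summits outside and inside the first border lay at 60908893 and 62104890 in replicate 1 and at 60866343 and 62227144 in replicate 2. In the full-length libraries the last summit before 62 Mb lay at 61895183 and 61894044, and the first inside at 62002634 and 62002633. Those outer peaks had fold enrichments of 5.33 and 4.14 and those inside of 8.29 and 5.53. At the other end the last del-cIDR summits inside were at 67967644 and 67967650, with the next at 68337447 and 68337444. The last full-length summits inside were at 67856369 and 67854094, with the next at 68234859 and 68504070. From 60 to 62 Mb there were 4 and 4 del-cIDR peaks and 23 and 17 full-length peaks, a ratio of 0.2. The lower del-cIDR number thus did not begin at the first border. From 68 to 70 Mb there were 13 and 14 del-cIDR peaks and 9 and 6 full-length peaks, a ratio of 1.8.

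Del-cIDR peaks in the block mostly stood alone, and full-length peaks came in bundles. Spacing follows in part from the number of peaks, on which the block was chosen. The contrast between genotypes is therefore described and was not tested. The median distance between neighbouring summits was 64270 and 105571 bp in the del-cIDR libraries, against 3347 and 2613.5 bp in the full-length libraries. Distances of 5 kb or less made up 17.0% and 17.9% of the distances in del-cIDR libraries and 54.8% and 56.1% of those in full-length libraries. Distances over 20 kb made up 76.6% and 76.9% in del-cIDR libraries and 24.7% and 27.6% in full-length libraries. The full-length spacing therefore had a short part within bundles and a long part between them, and the lower quartile was 1097.5 and 937 bp while the upper quartile was 18635 and 25647 bp. Of the 40 and 33 clusters of del-cIDR peaks, 34 and 28 were single peaks. Of the 108 and 97 full-length clusters, 50 and 55 were single peaks, and clusters of 3 or more held 60.8% and 63.8% of the peaks. Outside the block, distances of 5 kb or less made up 28.8% and 31.3% in del-cIDR libraries and 44.1% and 45.7% in full-length libraries. The median distances there were 27411 and 22170 bp and 8646.5 and 7862 bp. Close full-length spacing was not particular to this block. In the 4 Mb richest in full-length peaks on chromosome 4 the full-length shares were 64.7% and 65.9%, and on chromosome 2 they were 74.2% and 74.9%. The del-cIDR shares were 12.1% and 19.4% on chromosome 4 and 40% and 50% on chromosome 2.

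**Figure D3:**
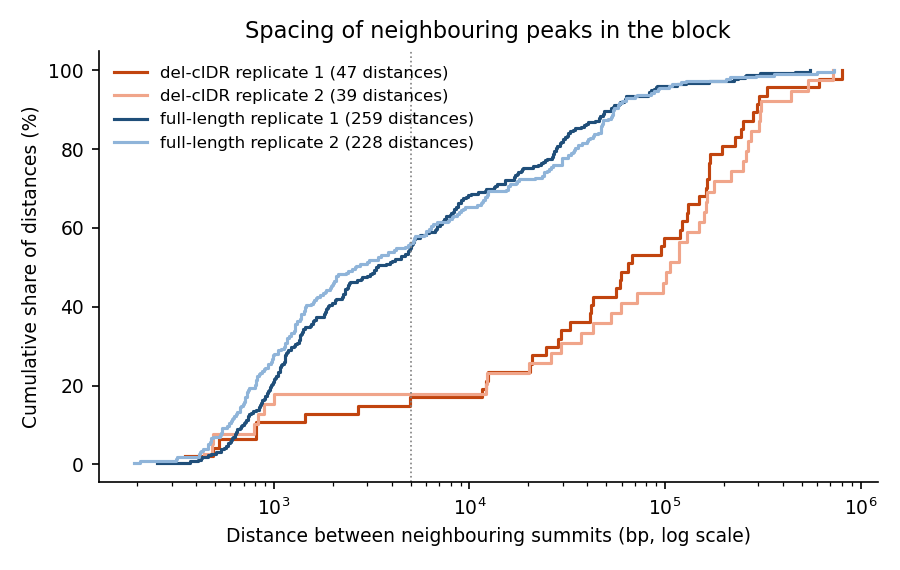
Curves give the cumulative share of distances between neighbouring summits in the block, on a log scale in bp, for each library, and the dotted line marks 5 kb. At 5 kb the del-cIDR curves stand at 17.0% and 17.9% and the full-length curves at 54.8% and 56.1%.

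When the peaks of both full-length libraries within 5 kb were joined, they formed 121 loci, of which 79 held peaks of both libraries. Of these loci, 23 had at least 3 peaks in each full-length library, with a median span of 7.98 kb and a range from 1.79 to 40.4 kb. They held 124 of the 260 peaks of replicate 1 and 132 of the 229 peaks of replicate 2. By stretch, 10 of the 23 lay in the first, 1 in the middle and 12 in the last. A del-cIDR peak overlapped 1 of the 23, the locus of the middle stretch from 64511460 to 64516913, with 2 and 1 del-cIDR peaks and 5 and 6 full-length peaks. The other 22 had no del-cIDR peak in either library. Of all 121 loci, 111 had none. Nothing is read from these counts, since the block was chosen on the contrast between the genotypes and the loci on full-length peaks. The share of such loci over the rest of the genome was not computed. Of merged regions in both full-length lists over the whole genome, 71.8% lacked a del-cIDR peak.

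The locus with the most peaks ran from 62283758 to 62324159, a span of 40.4 kb with 23 and 28 full-length peaks. Its widest peak measured 2550 bp, and enrichment over its peaks ran from 1.90-fold to 6.87-fold. Next by number came a locus from 66808817 to 66828510, with 7 and 10 full-length peaks over 19.7 kb. A shorter locus from 65444033 to 65452010 held 6 and 8 full-length peaks within 7.98 kb, and the peaks of replicate 1 covered 74.1% of it. Loci from 66187851 to 66199856 and from 62891414 to 62905345 held 7 and 7 and 7 and 6 full-length peaks. These 5 loci were chosen by their number of peaks after the values were seen. They vary between closely filled stretches and sparser chains, since the peaks of replicate 1 covered 42.5% of the first locus but 18.9% of the second and 20.7% of the fifth.

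Single peaks in the block were narrow in both genotypes. The median width was 311.5 and 339 bp in del-cIDR libraries and 409.5 and 284 bp in full-length libraries, so the del-cIDR values fell between those of the full-length replicates. Their means were 325 ± 19.4 and 347 ± 88.7 bp (SD, n = 2 per genotype), a difference of -21.5 bp that was within the spread of the replicates. Without full-length replicate 1 it was 41.2 bp, with the opposite sign. The widths also stand near the lowest width of each list, 300.0 and 301 bp for del-cIDR and 297 and 243 bp for full-length, and 16.7% and 17.5% of the del-cIDR and 6.92% and 11.8% of the full-length peaks in the block sat exactly there. At 1 kb or wider there were 2 and 1 peaks in del-cIDR libraries, against 28 and 10 in full-length libraries. As shares of the peaks in the block these were 4.17% and 2.5% in del-cIDR libraries and 10.8% and 4.37% in full-length libraries, so that del-cIDR replicate 1 and full-length replicate 2 were close. Outside the block the shares were 1.85% and 2.57% in del-cIDR libraries and 11.5% and 6.08% in full-length libraries. No del-cIDR peak in the block reached 2 kb, against 8 and 2 full-length peaks. The widest peaks measured 1315 and 1230 bp in del-cIDR libraries and 5073 and 2614 bp in full-length libraries.

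The 5 widest merged regions all belonged to full-length alone, and replicate 2 split each of them. The widest lay from 62816430 to 62821502 and was 1 peak of 5073 bp with 13.5-fold enrichment in replicate 1. In replicate 2 it was 2 peaks, the better ranked one of 2614 bp with 5.86-fold enrichment. Next came the region from 67815458 to 67819636, with 1 peak of 4179 bp and 11.3-fold in replicate 1 and 2 peaks, at best 9.45-fold, in replicate 2. The region from 67737442 to 67741022 was 1 peak of 3581 bp in replicate 1 and 4 peaks in replicate 2. That from 62196801 to 62200129 was 1 peak of 3329 bp against 5 peaks, and that from 67765825 to 67768580 was 1 peak of 2756 bp against 3 peaks. At all 5 places replicate 1 thus had 1 wide peak where replicate 2 had 2 to 5 narrower ones.

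Merging the 577 peaks by an overlap of at least 1 bp gave 350 regions, and few were shared by the genotypes. Both del-cIDR libraries and no full-length library held a peak at 22 regions. Both full-length libraries and no del-cIDR library held one at 149. All 4 libraries held a peak at 5 regions, and 6 regions had other mixtures. Peaks of a single library made up 26 regions for del-cIDR, 18 of them from replicate 1 and 8 from replicate 2. For full-length they made up 142, with 101 from replicate 1 and 41 from replicate 2. Both del-cIDR libraries shared 29 regions, and 75.9% of these lacked a full-length peak. Both full-length libraries shared 155 regions, and 96.1% of these lacked a del-cIDR peak. Over the whole genome these shares were 69.3% for del-cIDR and 71.8% for full-length regions. Nothing is read from the distance between them, since the block was chosen on the contrast between the genotypes. When peaks under 4-fold enrichment were left out, 11 del-cIDR-only, 75 full-length-only and 1 common region were left. With a −log10 q of at least 5, the common regions were 3 in place of 5.

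Averaged over each stretch, del-cIDR-only regions had similar densities, and full-length-only regions did not. By stretch, del-cIDR-only regions numbered 3, 6 and 13, or 3, 3 and 4.33 per Mb. Full-length-only regions numbered 54, 6 and 89, or 54, 3 and 29.7 per Mb. Within stretches the del-cIDR-only regions were uneven. Most of the 6 in the middle stretch formed the site from 63446690 to 63450210. Del-cIDR libraries listed 11 and 9 peaks from 66 to 66.5 Mb but 0 and 0 from 67 to 67.5 Mb. Of the del-cIDR summits, 7 of 48 and 10 of 40 lay inside a full-length peak, and 18 and 17 lay within 5 kb of one. The median distance to the nearest full-length peak was 10768.5 and 10114 bp. In the other direction, the median full-length summit lay 32883 and 34184 bp from a del-cIDR peak. These medians also follow from the larger number of full-length peaks, which leaves shorter ways to the nearest one.

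**Figure D4:**
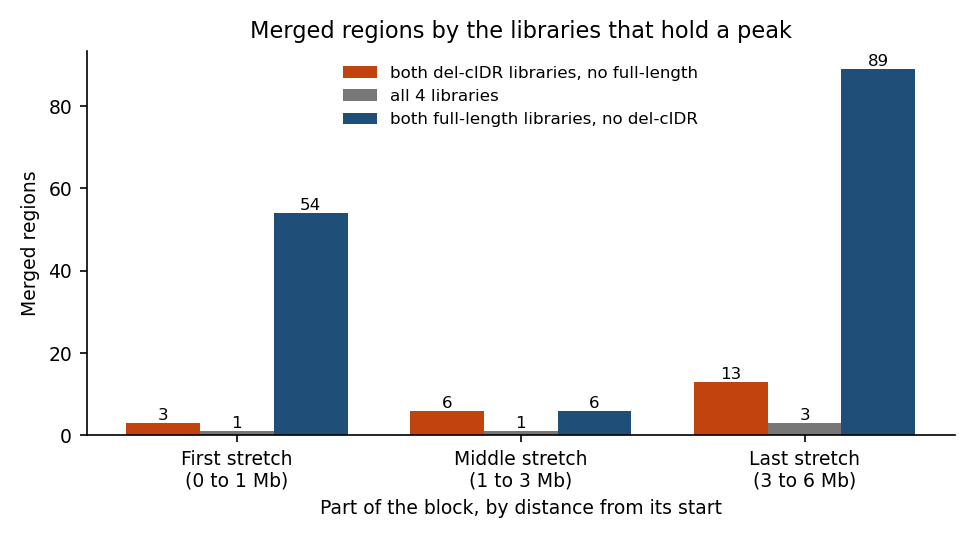
Bars count the merged regions in the first, middle and last stretch of the block by the libraries that held a peak there. Regions of del-cIDR alone number 3, 6 and 13, regions of full-length alone 54, 6 and 89, and regions of all 4 libraries 1, 1 and 3.

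Most peaks of a library recurred in its replicate. Of the peaks in the block, 60.4% and 72.5% in del-cIDR libraries and 60.4% and 80.8% in full-length libraries overlapped a peak of the other replicate. Across genotypes, between 12.5% and 20% of del-cIDR peaks overlapped a peak of a full-length library, and between 2.31% and 3.49% of full-length peaks overlapped a peak of a del-cIDR library. The Jaccard index, the share of covered bases that 2 libraries have in common, was 0.472 between the del-cIDR and 0.451 between the full-length replicates. Over the 4 pairs across genotypes it ran from 0.0112 to 0.0208. Over the whole lists 18.5% to 19.8% of del-cIDR peaks overlapped a peak of a full-length library, 15.9% to 21.9% of full-length peaks a peak of a del-cIDR library, and the Jaccard index across genotypes was 0.0606 to 0.0730. These values describe the block, whose number of peaks per genotype the choice used. The authors' fold enrichment also ordered regions alike within a genotype, with a Spearman correlation of 0.835 over the 29 regions of both del-cIDR libraries and of 0.627 over the 155 regions of both full-length libraries. Those values are across regions of the same pair of libraries and describe these lists only.

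By mean rank of −log10 q over the lists, the leading del-cIDR-only region was a single sharp site in the first stretch, from 62227087 to 62227409. It had 22.7-fold and 28.5-fold enrichment at ranks 617 and 493 of the del-cIDR lists, the best rank of the block in both. It was 323 bp long, and no full-length peak overlapped it. The others of the leading 5 lay in the last stretch and were weaker by fold. From 66326373 to 66326888 enrichment was 4.39-fold and 4.01-fold, and from 65894277 to 65895335, over 1059 bp, it was 3.36-fold and 4.93-fold. From 66647294 to 66647681 it was 4.50-fold and 4.07-fold, and from 66517161 to 66517472 it was 5.55-fold and 9.38-fold. All but the first of these 5 ranked between 821 and 1685 in their lists.

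Among the full-length-only regions, in the same order, the first lay from 67000248 to 67000801. Its fold enrichment was 7.09 and 7.19, at ranks 559 and 686 of the full-length lists. The region from 66056342 to 66056842 had 11.1-fold and 7.64-fold enrichment at ranks 565 and 702, and the region from 67420651 to 67421004 had 7.68-fold and 7.97-fold at ranks 698 and 706. All 3 were short regions, of 554, 501 and 354 bp. The next lay from 66817405 to 66819000, inside the 19.7 kb locus, with 7.37-fold and 5.53-fold enrichment over 1596 bp. From 62287802 to 62289223, inside the 40.4 kb locus, enrichment was 5.68-fold and 4.66-fold. The region from 64514027 to 64514832 had 6.73-fold and 9.13-fold enrichment, and its neighbour from 64512735 to 64513087 had 8.91-fold and 10.3-fold. Both belonged to the locus of the middle stretch. The region from 62687444 to 62687900 had the lowest values of the 8, 3.93-fold and 3.54-fold. The best ranks of any full-length peak in the block were 520 and 686.

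Sites common to all 4 libraries were short, and the genotypes ranked them unlike. The site from 65410729 to 65411029 had 32.4-fold and 46.7-fold enrichment in del-cIDR libraries, at ranks 809 and 618. In full-length libraries it had 4.11-fold and 7.28-fold, at ranks 18409 and 7419, near the end of the list of replicate 1. Likewise the site from 67664199 to 67664500 had 8.43-fold and 10.5-fold in del-cIDR libraries and 2.62-fold and 3.90-fold in full-length libraries. The site from 64511460 to 64511955 was the reverse, with 3.63-fold and 4.86-fold in del-cIDR libraries and 9.76-fold and 8.27-fold in full-length libraries. It opens the locus of the middle stretch. At the site from 65676730 to 65677208 all 4 values lay between 2.07-fold and 2.70-fold. Its ranks were 6721 and 6139 in del-cIDR libraries and 11293 and 12385 in full-length libraries. From 62939386 to 62939686 enrichment was 7.48-fold and 4.83-fold in del-cIDR libraries and 5.59-fold and 2.92-fold in full-length libraries, so the genotypes overlapped in fold. By rank they did not, with 4747 and 10258 against 12208 and 15873. Only the site from 64511460 to 64511955 ranked better in full-length libraries, at 997 and 863 against 2786 and 2337 in del-cIDR libraries. Fold enrichment is the peak caller's value within its own list, so these values describe the peaks and were not tested between genotypes.

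**Figure D5:**
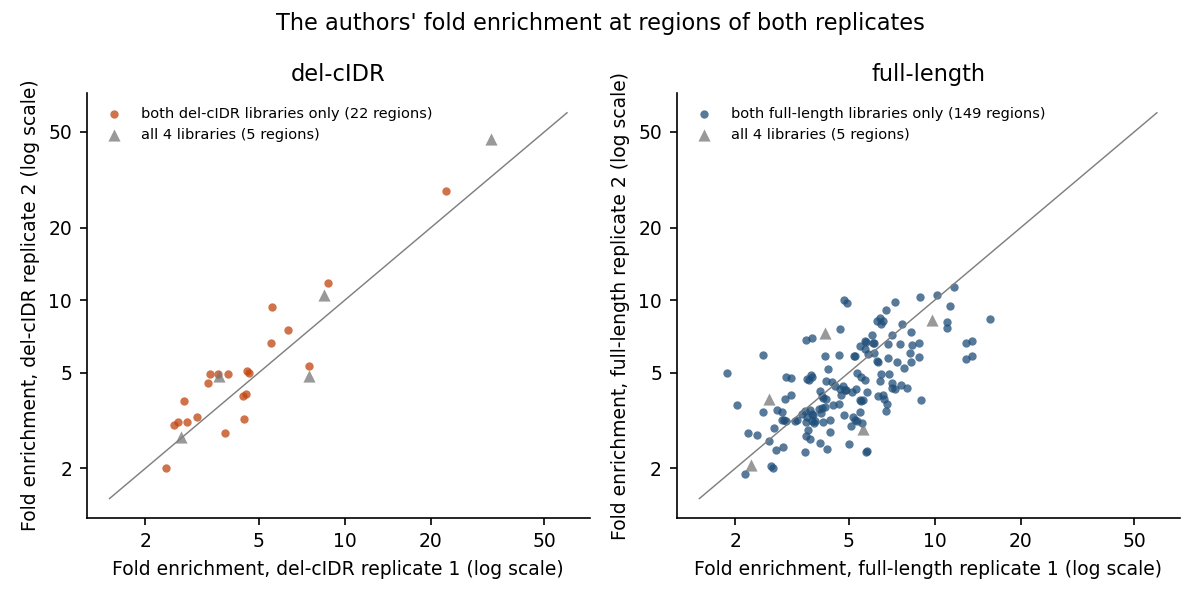
Points are merged regions of both replicates, with the authors' fold enrichment in replicate 1 on the horizontal and in replicate 2 on the vertical log axis, del-cIDR on the left and full-length on the right, and the line marks equal values. In del-cIDR libraries a del-cIDR-only region reaches 28.5-fold and a region of all 4 libraries 46.7-fold, full-length-only regions reach 15.6-fold in full-length libraries, and the few regions with other mixtures of libraries are not drawn.

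Within their own lists, peaks of the block had better median ranks than other peaks in all 4 libraries. The exact test used here, over 4 libraries, cannot settle whether this holds beyond them. The median rank by −log10 q, as a percent of the list, was 33.3 and 33.3 in del-cIDR libraries and 38.7 and 40.3 in full-length libraries, against about the middle of the list for all other peaks. The difference of block minus rest was -13.7 ± 3.62 percent of the list and had this direction in 4 of 4 libraries (SD, n = 4). In a two-sided exact sign-flip permutation test over the libraries, 2 of 16 sign assignments were as extreme, the smallest share that 4 libraries allow, and the p adjusted over the 5 measures compared was 0.208. When peaks under 4-fold were left out the difference was -1.88 percent of the list. At the top of the lists the shares of the genotypes differed, on few peaks. The best-ranked 10% of each list held 8 and 9 of the block's del-cIDR peaks, or 16.7% and 22.5%. It held 29 and 15 of the block's full-length peaks, or 11.2% and 6.55%. Over a whole list this share is 10% by construction, and the difference was not tested. Inside the block the median peak of del-cIDR libraries had 3.75-fold and 4.29-fold enrichment, against 3.17-fold and 3.16-fold elsewhere. In full-length libraries it had 4.39-fold and 4.26-fold inside, against 3.79-fold and 3.59-fold elsewhere. The block was higher by 0.744 ± 0.264 in 4 of 4 libraries (2 of 16 sign assignments, adjusted exact permutation p = 0.208, n = 4), but the difference was -0.663 when peaks under 4-fold were left out.

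Peaks of 2 kb or wider made up none of the del-cIDR peaks in the block and 3.08% and 0.873% of the full-length peaks, against 0.0912% and 0.138% of del-cIDR and 4.16% and 2.19% of full-length peaks elsewhere. Both full-length shares were thus lower in the block. In del-cIDR libraries such peaks are so rare that 0 among 48 and 40 peaks gives no direction, and the test over the 4 libraries is not read for this measure. Median width differed by 4.5 ± 19.5 bp, with 2 libraries higher and 2 lower (exact permutation p = 0.75, adjusted 0.75, n = 4). Overlap with the other replicate was higher by 4.99 ± 6.98 percentage points, in 3 of 4 libraries (exact permutation p = 0.25, adjusted 0.312, n = 4).

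Other blocks rich in full-length peaks stood alongside. The chromosome 13 block held 7.33 ± 0.943 del-cIDR and 40.75 ± 3.65 full-length peaks per Mb. The 4 Mb richest in full-length peaks on chromosome 4, from 144 to 148 Mb, had 8.88 ± 0.530 del-cIDR and 83.5 ± 3.54 full-length peaks per Mb. Those on chromosome 2, from 174 to 178 Mb, had 5.25 del-cIDR and 53.1 ± 10.1 full-length peaks per Mb (SD, n = 2 per genotype). The ratio of del-cIDR to full-length was 0.180 on chromosome 13, 0.106 on chromosome 4 and 0.0988 on chromosome 2, and these differences were not tested. The blocks were chosen unlike. Those on chromosomes 4 and 2 are the richest 4 Mb, whereas the fixed 6 Mb on chromosome 13 include the sparse middle stretch. By stretch the chromosome 13 ratios were 0.0714, 1 and 0.172, with 84.0, 6.25 and 49.3 full-length peaks per Mb. The blocks are therefore not ordered by these values.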

How the data were processed

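Peak lists of 4 eCLIP immunoprecipitates were used, 1 per replicate. The build was GRCm39 and the tools named were MACS2, STAR, cutadapt and UMI-tools, per the submitters' processing notes. Their versions and settings, and whether inputs served as controls, are not given in the sources used. Each peak carries values the authors deposited: a fold enrichment (a ratio over the caller's background), a score, a −log10 q-value, the matching −log10 p-value and, as a column of another kind, the distance from peak start to summit. Depth is unknown.

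All peaks with a summit in the block were kept. Windows, widths, spacing, regions merged by 1 bp of overlap, and ranks by −log10 q within each list were computed in Python 3.11.15 with pandas 2.3.3 and scipy 1.17.1. Block and rest were compared by an exact sign-flip test over the 4 libraries. The merging was tested on simulated lists of separate regions with at most 1 peak per library. Split or closely adjoining peaks were not simulated. The named regions were the 5 del-cIDR-only, 8 full-length-only and 5 common regions of best mean rank, the 5 widest, and the 3 densest windows per genotype. The members and lists were chosen with earlier results of these data known. Sequence under the peaks was not analysed here.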

Additional observations from a re-analysis of the deposited data

How the results depend on the processing

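Of 85 recomputed values, 71 stayed within the replicate spread, within 1.5 times for counts, or kept their direction for differences of block minus rest. The ratio of del-cIDR to full-length peaks in the block was 0.180 as reported and 0.150 when peaks under 4-fold enrichment were left out, 0.356 with peaks within 5 kb joined, 0.0714 in the first stretch and 1 in the middle stretch. It ran from 0.164 to 0.196 with a replicate left out. The ratio of median spacings, 28.5 as reported, was 4.01 with peaks joined, which removes the short distances by construction. Windows with both del-cIDR libraries below both full-length libraries made up 72.7% to 83.3% over 4 window settings. Without peaks under 4-fold enrichment there were 11 del-cIDR-only, 75 full-length-only and 1 common region, and at a −log10 q of 5 or more there were 3 common regions. Leaving out a replicate gave 22 to 41 del-cIDR-only, 149 to 252 full-length-only and 5 to 7 common regions, with the highest values without del-cIDR replicate 2 (41) and without full-length replicate 2 (252), since 1 library then stands for its genotype. The median width difference between genotypes, within that spread, ran from -84.2 to 41.2 bp with a replicate left out. Of block minus rest, median width ran from -4.17 to 10.5 bp with a replicate left out, negative without full-length replicate 1. Without peaks under 4-fold enrichment, median fold enrichment was -0.663 and overlap with the other replicate was -2.55 percentage points, both turned in sign, and the cause was not tested. Median fold ran from 0.613 to 0.799, median rank from -15.0 to -12.6 percent of the list and wide peaks from -0.846 to -0.438 percentage points with a replicate left out. No paired analysis was possible because the differences between genotypes come from no test into which a pair could enter. Read depth, RNA level and strand are unknown, so more peaks cannot be told apart from more RNA or more reads.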
